A study of Homo sapiens with 6 samples.

Results

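Epithelial cells hold together through adherens junctions, tight junctions and desmosomes. The 35 genes of these junctions described here were taken from a list by name: cadherins and catenins with EPCAM, claudins, other tight junction proteins, polarity proteins, desmosomal proteins, the epithelial regulators ESRP1, ESRP2 and GRHL1, and the membrane protease ST14 with its inhibitors. All 35 were found among the 56303 gene symbols of the count table. Their counts were compared in SW480, a line established from a human colon adenocarcinoma, after depletion of the splicing factor RBM39. Lentiviral hairpins were used, a control hairpin (shCtrl) in 3 libraries and a hairpin against RBM39 (shRBM39) in the other 3, and no further agent was named for either group. The study's methods describe stable clonal lines kept after puromycin selection, so the effect of the RBM39 hairpin and that of the selected line cannot be told apart. It followed the transition from epithelial to mesenchymal cells in colon cancer, and the question addressed was which junction genes differ when RBM39 is low.

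In an adherens junction, cadherins of neighbouring cells bind each other and catenins tie them to actin. Claudins and occludin form the tight junction, which seals the space between cells, and zonula occludens proteins anchor it below the membrane. Desmosomes use their own cadherins, and plakins with plakoglobin and plakophilins link these to keratin filaments.

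Total counts ran from 18042924 to 20428901 per library, and replicate libraries differed by more than sampling noise (chi-square per degree of freedom 2.01 to 3.90). RBM39 itself measured 441, 448 and 435 CPM (counts scaled to the library size with TMM factors) in shCtrl and 266, 276 and 292 CPM in shRBM39, a log2 fold change of -0.67 ± 0.04 (SE, edgeR quasi-likelihood test, adjusted p = 1.24e-16). Of the 9 further colon epithelial markers, 7 had enough counts to test, and their summed RPKM (reads scaled to gene length and library size) was 2424 to 2563 in shCtrl and 2759 to 2851 in shRBM39. KRT8, KRT18 and KRT20 were higher in shRBM39, and CDX2, VIL1 and CDH17 were lower. CDX1 and LGALS4 lay near 0 in both groups. Markers of other cell types were low: summed RPKM was 2.35 to 2.75 against 2.65 to 3.03 for 8 fibroblast genes, 8.26 to 9.04 against 8.44 to 9.44 for 8 leukocyte genes and 0.451 to 0.597 against 0.761 to 0.950 for 5 endothelial genes. PTPRC of leukocytes and KDR of endothelium had 0 counts in every library. In such bulk RNA, fewer cells that express a gene and less RNA per cell cannot be told apart.

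More junction genes were lower than higher in shRBM39. Of the 35 genes, 34 had enough counts to test, and 26 of these passed an adjusted p of 0.05 in edgeR's quasi-likelihood test. Among the 34, 22 were lower in shRBM39, where 29.9% of all 18243 tested genes were lower. Only 4 were higher (CDH3, F11R, MARVELD3 and GRHL1), where 29.2% of all tested genes were higher. The median log2 fold change was -0.20 over the 34 genes and -0.01 over all tested genes. Scaling by library totals alone moved these medians to -0.33 and -0.14, which left the junction genes 0.19 below the median of all genes as before. Under that scaling 29 junction genes were called lower and 2 higher, and the share of higher genes among all calls went from 49.4% to 33.9%. On log2(RPKM + 1), limma called 26 junction genes lower and 2 higher, with 34.0% of all calls higher. Small decreases depended on the scaling: library totals moved CTNNA1, DSG2, DSP, ESRP1, LLGL2, PERP, PKP3 and TJP1 by over 1.5 times, to between -0.37 and -0.25. The 3 shRBM39 values all lay below the 3 shCtrl values for 26 of the 34 genes, against 32.3% of all tested genes. Most differences were small: 7 genes were called lower by at least 0.5 on the log2 scale, where 14% of all tested genes were, and 1 gene was called higher by as much, where 11.4% of all were. When the change itself was tested against 0.5, 5 of the 34 junction genes passed, 4 lower and 1 higher, a share near the 12.2% of all tested genes that passed.

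**Figure D1:**
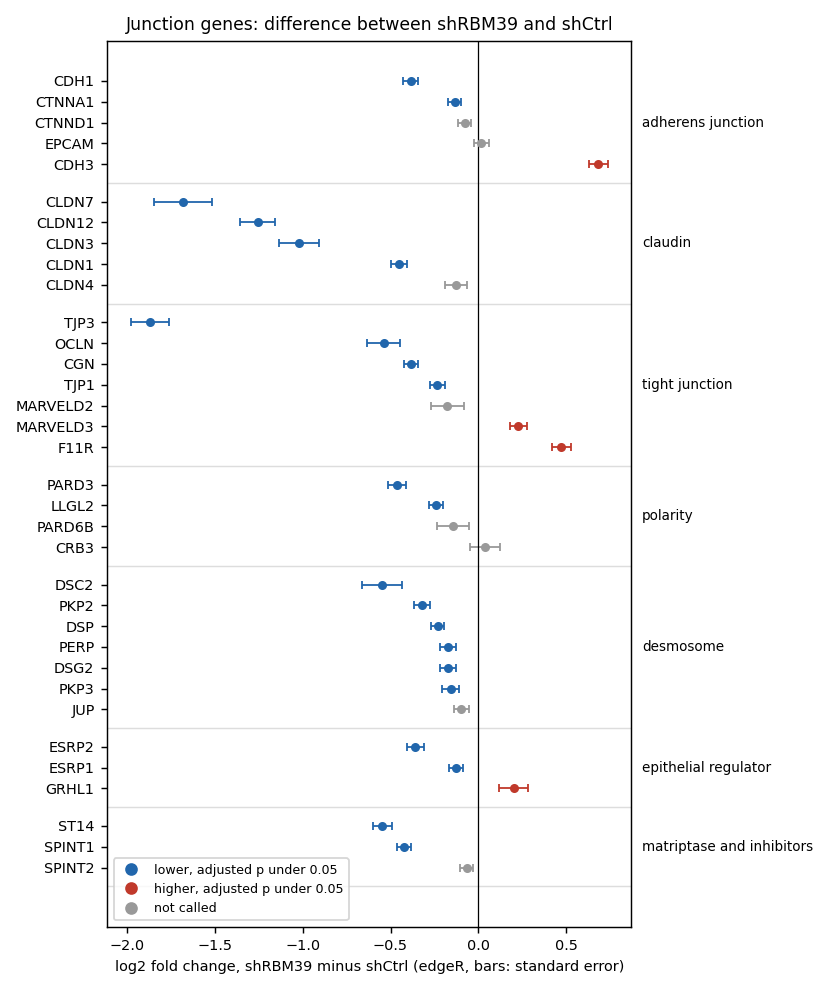
Log2 fold change of each tested junction gene, shRBM39 minus shCtrl on the horizontal axis, from edgeR with bars of 1 standard error (3 libraries per group). Blue points are called lower, red points called higher and grey points not called at an adjusted p of 0.05. TJP3, CLDN7, CLDN12 and CLDN3 lie at -1.87 to -1.02, CDH3 lies farthest to the right at 0.68, and the points of EPCAM, CRB3 and CTNND1 change sides of 0 under other scalings.

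Levels between genes were compared per length, in the RPKM values that the authors computed without TMM scaling. EPCAM, an adhesion molecule of simple epithelia, was the most abundant at 245 ± 8.26 RPKM in shCtrl (SD, n = 3). Desmoplakin (DSP), which links desmosomes to keratin, followed at 141 ± 3.62 RPKM. CTNNA1 at 45.6, SPINT2 at 36.5 and ST14 at 30.5 RPKM came next, and CDH1 was 14th of 35 at 15.1 RPKM. The genes with the 4 largest decreases were of low abundance in shCtrl, at 7.52 RPKM for CLDN3, 3.46 for TJP3, 2.06 for CLDN7 and 1.97 for CLDN12. DSC2 was lower still at 0.646 RPKM. CLDN2, a pore-forming claudin, had 2 counts or fewer in each library and was not tested.

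**Figure D2:**
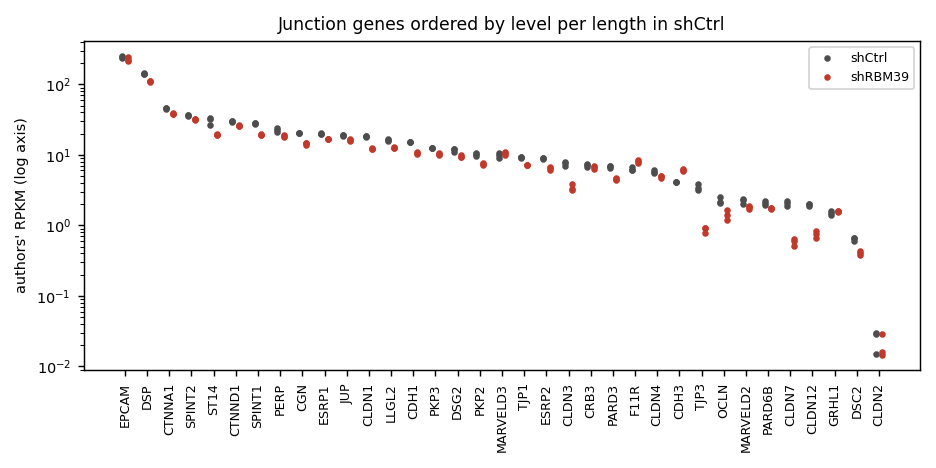
Levels of the 35 junction genes in RPKM on a log axis, ordered by their mean in shCtrl, with 1 point per library (grey shCtrl, red shRBM39). The order runs from EPCAM at 245 RPKM and DSP at 141 RPKM down to DSC2 at 0.646 RPKM and CLDN2 at 0.0247 RPKM in shCtrl.

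The classical cadherins of the adherens junction moved in opposite directions. CDH1, which encodes E-cadherin, measured 89.8, 89.4 and 88.7 CPM in shCtrl and 69.0, 69.9 and 66.1 CPM in shRBM39. The groups did not overlap, and the log2 fold change was -0.39 ± 0.04 (SE, edgeR, adjusted p = 1.03e-09), or 23.5% lower. CDH3, which encodes P-cadherin and lies beside CDH1 on chromosome 16, measured 25.01, 24.8 and 24.3 CPM in shCtrl and 38.6, 40.8 and 39.5 CPM in shRBM39. Every shRBM39 value was above every shCtrl value, with a log2 fold change of 0.68 ± 0.05 (SE, edgeR, adjusted p = 5.05e-13). An antisense gene covers 11.1% of the merged exons of CDH3 and was itself higher by 0.84 on the log2 scale, while another covers 5.6% of CDH1 and was at -0.32. Reads of both strands may be mixed there, because the strand setting of the counting was not stated. CTNNA1, the alpha-catenin that connects the complex to actin, was lower by a small margin (log2 fold change -0.14, adjusted p = 0.00203). With an offset for GC content and gene length it moved to -0.04 and was no longer called. CTNND1, the p120 catenin that keeps cadherins at the membrane, measured 249, 249 and 255 CPM in shCtrl against 235, 241 and 238 CPM in shRBM39. The values did not overlap, yet the log2 fold change of -0.08 ± 0.04 (SE, edgeR) did not pass the test (adjusted p = 0.0653), and the same offset turned it to 0.0073. EPCAM measured 621, 577 and 577 CPM in shCtrl and 562, 587 and 645 CPM in shRBM39. These groups overlapped, with a log2 fold change of 0.02 ± 0.04 (SE, edgeR, adjusted p = 0.749) that turned to -0.11 under library totals alone.

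Among the claudins, 4 of the 5 tested were lower and none was higher in the edgeR test. Of all tested genes, 29.9% were lower and 29.2% higher. CLDN7 measured 4.52, 4.99 and 5.27 CPM in shCtrl and 1.58, 1.34 and 1.65 CPM in shRBM39, from 91 to 107 counts against 23 to 32 counts. Its log2 fold change was -1.68 ± 0.17 (SE, edgeR, adjusted p = 8.90e-11), or 68.8% lower. CLDN12 measured 12.4, 13.1 and 12.8 CPM against 5.31, 4.71 and 5.94 CPM. Its values were likewise separate, with a log2 fold change of -1.26 ± 0.10 (SE, edgeR, adjusted p = 4.88e-13). CLDN3, a sealing claudin of the intestine, measured 9.83, 9.23 and 8.51 CPM in shCtrl and 4.29, 5.11 and 4.23 CPM in shRBM39. That is a log2 fold change of -1.02 ± 0.11 (SE, edgeR, adjusted p = 1.33e-09), or 50.7% lower. Other genes on the same strand share 16.3% of the merged exons of CLDN12 and 10.8% of those of CLDN7. On log2(RPKM + 1), where limma understates changes of low genes, CLDN12 was at -0.76 and CLDN7 at -0.95. The tested partners with most counts, GTPBP10 and RP1-4G17.5, were at -0.07 and 0.03 on the log2 scale. CLDN1, needed for the skin barrier, was lower by less (log2 fold change -0.45, adjusted p = 1.09e-10). CLDN4 was at -0.13 and did not pass (adjusted p = 0.0782), although it did in 5 of 15 alternative fits, among them upper-quartile scaling, library totals and limma.

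The other tight junction genes were divided, with 4 lower and 2 higher of 7 tested. The shares over all tested genes were 29.9% lower and 29.2% higher. TJP3, which encodes the scaffold ZO-3, showed the largest change of all 34 genes. It measured 13.9, 12.6 and 15.5 CPM in shCtrl and 3.47, 4.01 and 4.03 CPM in shRBM39, a log2 fold change of -1.87 ± 0.11 (SE, edgeR, adjusted p = 1.85e-16), or 72.6% lower. OCLN, the membrane protein occludin, measured 13.7, 16.2 and 14.1 CPM in shCtrl and 11.7, 8.54 and 9.81 CPM in shRBM39. The groups stayed separate but shRBM39 replicates spread widely, and the log2 fold change was -0.54 ± 0.09 (SE, edgeR, adjusted p = 8.28e-06). The scaffold TJP1 (ZO-1) was at -0.23 (adjusted p = 7.39e-06), or -0.12 with the GC content and length offset, and cingulin (CGN), which ties ZO proteins to the cytoskeleton, at -0.38 (adjusted p = 4.85e-10). MARVELD2 (tricellulin), which closes the corners where cells meet, was at -0.18 and did not pass (adjusted p = 0.0984). F11R, the junctional adhesion molecule JAM-A, was higher at 0.47 on the log2 scale (adjusted p = 4.07e-09) and at 0.31 under limma on log2(RPKM + 1). The readthrough gene RP11-544M22.13 shares 36.6% of its merged exons on the same strand and was itself at 0.36, so reads of the pair could be split between them. MARVELD3, an occludin relative, was higher at 0.23 (adjusted p = 1.44e-04). Its call was lost under library totals (0.10) and under limma on log2(RPKM + 1) (0.09), and genes on the opposite strand cover 18.1% of its exons.

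**Figure D3:**
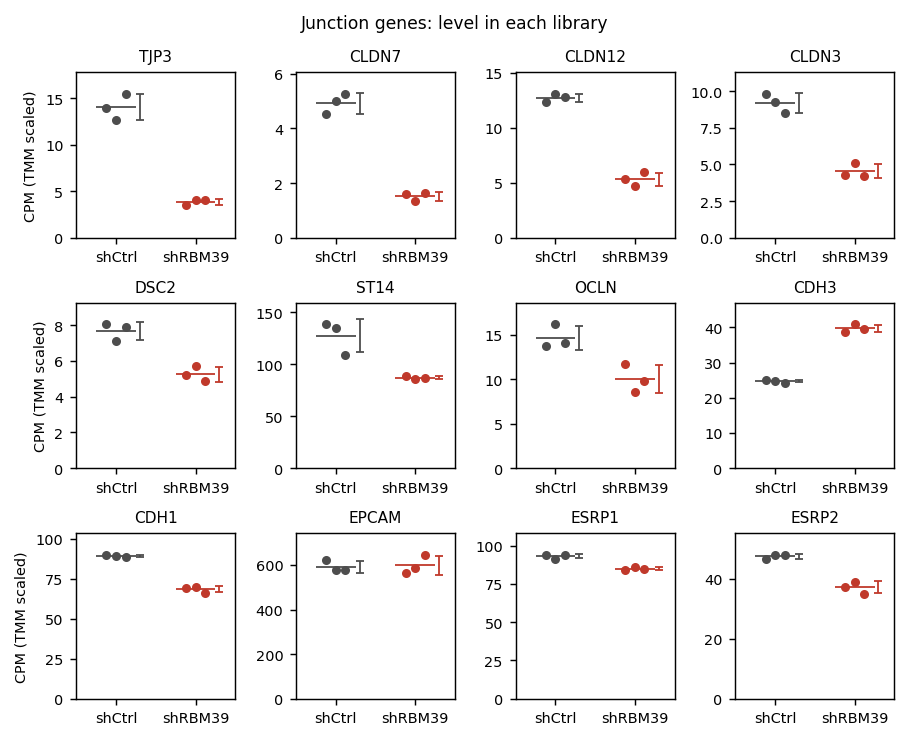
Level in CPM with TMM scaling of 12 junction genes in each of the 6 libraries, with points for libraries, lines for group means and bars for 1 SD (n = 3 per group, axes from 0). The 7 genes called lower by at least 0.5 on the log2 scale and CDH3 are followed by CDH1, EPCAM, ESRP1 and ESRP2. The groups are separate in every panel except that of EPCAM, whose means of 591 and 598 CPM are close and change order under library totals alone.

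Of the 4 polarity genes, PARD3 and LLGL2 were lower, where 29.9% of all tested genes were, and the others did not pass. PARD3, the scaffold of the apical PAR complex, had a log2 fold change of -0.46 (edgeR, adjusted p = 3.23e-09) and fell from a mean of 42.6 to 30.9 CPM. LLGL2, which marks the basolateral side, was at -0.24 (adjusted p = 2.43e-06), or -0.15 with the GC content and length offset. PARD6B, a partner of PARD3, was at -0.14 (adjusted p = 0.187). The apical protein gene CRB3 was at 0.04 (adjusted p = 0.732) and at -0.09 under library totals alone.

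All 7 desmosomal genes had a log2 fold change below 0, as had 9365 of all 18243 tested genes. In the test 6 of the 7 were called lower, where 29.9% of all tested genes were. DSC2, the desmosomal cadherin desmocollin 2, measured 8.04, 7.11 and 7.87 CPM in shCtrl and 5.21, 5.69 and 4.85 CPM in shRBM39. Its values did not overlap, and the log2 fold change was -0.55 ± 0.11 (SE, edgeR, adjusted p = 7.85e-05). Under limma on log2(RPKM + 1) it was -0.23. The others were lower by smaller amounts. PKP2, a plakophilin, was at -0.32 (adjusted p = 2.47e-07) and DSP at -0.23 (adjusted p = 1.75e-06). With the GC content and length offset DSP was at -0.12 and was still called. DSG2, the desmoglein of simple epithelia, was at -0.17 (adjusted p = 0.00149), PERP, a membrane protein of desmosomes, at -0.17 (adjusted p = 0.00110) and PKP3 at -0.16 (adjusted p = 0.00490). JUP, which encodes plakoglobin, was at -0.10 (adjusted p = 0.0571), with overlapping groups.

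The epithelial splicing regulators ESRP1 and ESRP2, which keep epithelial exon choices, were both lower. ESRP1 measured 93.6, 91.3 and 93.9 CPM in shCtrl and 84.3, 86.2 and 84.5 CPM in shRBM39. The groups were separate, although the change was small, at -0.13 ± 0.04 on the log2 scale (SE, edgeR, adjusted p = 0.00662). ESRP2 measured 46.6, 48.0 and 47.9 CPM against 37.3, 38.98 and 35.01 CPM. Its log2 fold change was -0.36 ± 0.05 (SE, edgeR, adjusted p = 1.79e-07). GRHL1, a transcription factor of epithelial junction genes, was at 0.20 (adjusted p = 0.0332). Its call was lost in 9 of 15 alternative fits, DESeq2 among them, and its sign was the same in all 15.

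ST14 encodes matriptase, a protease of the epithelial surface, and SPINT1 and SPINT2 encode its Kunitz-type inhibitors. ST14 measured 138, 135 and 109 CPM in shCtrl and 89.0, 86.0 and 86.6 CPM in shRBM39. The third shCtrl library was nearer to shRBM39 than the other two were. The log2 fold change was -0.55 ± 0.05 (SE, edgeR, adjusted p = 1.42e-10), and it ran from -0.64 to -0.48 when each library was left out. SPINT1 was at -0.42 (adjusted p = 8.27e-11), and SPINT2 was at -0.07 and did not pass (adjusted p = 0.126).

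A further 100 genes of the same junctions, of gap junctions and of their regulators were listed for context, and 63 of them were tested. In edgeR 30 were lower and 13 higher, with a median log2 fold change of -0.14. Over all 18243 tested genes, 29.9% were lower, 29.2% were higher and the median was -0.01. Of 14 other adherens junction genes, 9 were lower and 1 was higher: CTNNB1, the beta-catenin that binds CDH1, was at 0.51. The intestinal cadherin CDH17 was at -1.34 and PLEKHA7, which binds p120 catenin, at -0.49. Of 28 other tight junction and polarity genes, 11 were lower and 7 higher, with ILDR1 at -1.26 (6 to 23 counts per library), JAM3 at 0.91 and CLDN23 at 0.90. Among 4 other desmosomal genes, the plakin PPL was lower (-0.31), and EVPL (0.26) and CDSN (0.49) were higher. Among gap junction genes, GJB1 (-0.48) was lower and GJC1 (0.60) was higher. All 5 other epithelial regulators were called, 3 lower and 2 higher, with the transcription factors KLF4 at -1.40, ELF3 at -0.74 and KLF5 at -0.52. Among matriptase partners, the proteases PRSS8 and HPN were at -2.03 and -1.23 and the receptor MET at -0.42. PRSS8 rested on 11, 20 and 15 counts in shCtrl against 0, 4 and 6 in shRBM39. Of the repressors of CDH1, ZEB1 was lower (-0.56), and SNAI1 (0.12) and SNAI2 (0.22) were not called. ZEB1 and CDH1 were thus both lower in shRBM39. In western blots of another colon cancer line, the study reported more E-cadherin and less Zeb1 and Slug (SNAI2) after RBM39 knockdown. It reported a similar result with indisulam, which promotes degradation of RBM39, and blots of SW480 were among these. Those are protein levels, whereas RNA was compared here.

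ZEB and SNAI proteins bind the E-box CAGGTG, and promoters of junction genes are known to carry it. RefSeq promoters on GRCh38.p14, from 250 bases before the start to 50 after it, were matched for 20 of the 35 genes. The E-box, read on both strands as CAGGTG or CACCTG, was in 7 of the 20 (CLDN3, CRB3, DSC2, DSG2, DSP, OCLN and TJP1), or 35%, and in 20.6% of all 27305 promoters. Of these 7 genes, 6 were called lower in shRBM39, and of the other 13 matched genes 12 were tested and 8 were called lower. Over the whole list 22 of the 34 tested genes were called lower, and over all 18243 tested genes 29.9% were. CLDN3, DSC2, OCLN and TJP1 hold 1 E-box each, DSG2 and DSP hold 2 each, and these were called lower. CRB3 holds 5 and was not called. Whether E-boxes bear on the levels was not tested, and CDH1 was not among the matched promoters. Those of CLDN3, OCLN and CRB3 are shown with E-boxes in capitals, 5′ to 3′ along the gene. CLDN3 (minus strand) is at chr7:73770221-73770520, OCLN (plus) at chr5:69492297-69492596 and CRB3 (plus) at chr19:6464021-6464320.
CLDN3 promoter: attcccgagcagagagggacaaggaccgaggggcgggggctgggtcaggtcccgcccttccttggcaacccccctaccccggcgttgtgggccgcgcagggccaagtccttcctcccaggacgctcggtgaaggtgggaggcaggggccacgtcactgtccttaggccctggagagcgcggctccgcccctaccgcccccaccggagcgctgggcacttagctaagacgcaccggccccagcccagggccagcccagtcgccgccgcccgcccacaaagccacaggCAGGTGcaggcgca
OCLN promoter: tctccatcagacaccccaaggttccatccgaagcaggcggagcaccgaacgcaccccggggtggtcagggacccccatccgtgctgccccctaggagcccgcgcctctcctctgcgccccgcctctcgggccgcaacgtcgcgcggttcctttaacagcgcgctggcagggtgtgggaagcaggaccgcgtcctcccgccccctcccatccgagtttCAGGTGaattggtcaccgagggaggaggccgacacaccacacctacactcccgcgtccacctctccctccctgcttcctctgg
CRB3 promoter: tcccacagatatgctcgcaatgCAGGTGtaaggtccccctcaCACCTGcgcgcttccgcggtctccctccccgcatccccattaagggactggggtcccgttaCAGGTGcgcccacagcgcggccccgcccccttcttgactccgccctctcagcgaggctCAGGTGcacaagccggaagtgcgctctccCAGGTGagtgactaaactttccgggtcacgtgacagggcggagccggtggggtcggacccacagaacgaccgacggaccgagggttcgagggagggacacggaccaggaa
The E-box of CLDN3 starts 36 bases after the start site and that of OCLN 33 bases before it, while those of CRB3 lie from 228 to 60 bases before it. The motif of grainyhead factors such as GRHL1, AACCNGTT or AACNGGTT on the other strand, was in 1 of the 20 promoters, that of CGN, and in 1.73% of all. The motif TTTATG of CDX factors, or CATAAA on the other strand, was in 0 of the 20 and in 11% of all. No binding was measured here.

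Splicing of these genes was examined in the table of records that the authors had made with rMATS. The smallest absolute difference between group means over all 1582 records was 0.1, so its records were selected for a difference and levels are described without a test. The table does not name which of its groups 1 and 2 is the knockdown. An inclusion level is the share, from 0 to 1, of transcripts that use the exon or site, corrected for length. Among the 34 junction genes with at least 10 counts in every library, 5 had a record, against 7.11% of all 16743 such genes. They had 6 records in all, 5 of skipped exons (SE) and 1 of an alternative 5′ splice site (A5SS). In 5 of the 6 the groups did not overlap, as in 57.5% of all records. In 4 of the 5 skipped exons the level was lower in group 1, as in 72.6% of all SE records. At least 20 reads in every library were present for 3 of the 6.

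**Figure D4:**
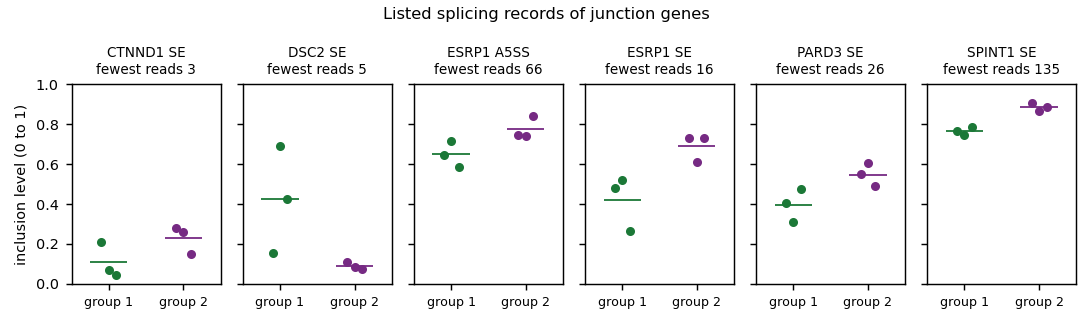
Inclusion level from 0 to 1 in the 6 listed splicing records of junction genes, with 1 point per library and lines for group means, groups as numbered in the table. The record of CTNND1 is the only one that overlaps, DSC2 is the only one higher in group 1, and the panel titles give the fewest reads in a library, from 3 for CTNND1 to 135 for SPINT1.

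The exons of SPINT1, PARD3 and DSC2, whose records are 3 of the 5 without overlap, are shown to set the exons that keep the frame beside the one that does not. Capitals mark the exon and lower case the 30 bases of intron on each side, 5′ to 3′ along the gene on GRCh38. SPINT1 (plus strand) is at chr15:40854397-40854522, PARD3 (minus) at chr10:34372498-34372536 and DSC2 (minus) at chr18:31068299-31068344.
SPINT1 exon: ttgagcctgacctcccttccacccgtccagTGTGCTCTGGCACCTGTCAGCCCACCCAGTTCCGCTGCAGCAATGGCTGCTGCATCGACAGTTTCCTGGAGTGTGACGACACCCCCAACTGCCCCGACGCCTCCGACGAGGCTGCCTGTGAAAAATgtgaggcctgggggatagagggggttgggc
PARD3 exon: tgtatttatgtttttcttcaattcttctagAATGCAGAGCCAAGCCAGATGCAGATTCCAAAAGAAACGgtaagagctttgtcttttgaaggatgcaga
DSC2 exon: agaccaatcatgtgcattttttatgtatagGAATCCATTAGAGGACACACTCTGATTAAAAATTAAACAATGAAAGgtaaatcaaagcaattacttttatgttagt
The SPINT1 and PARD3 exons are coding and keep the reading frame. The DSC2 exon does not.

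The best covered record was that of SPINT1, exon 7 of 11 and 126 nt long, which encodes the low-density lipoprotein receptor class A domain of the inhibitor. Its level was 0.766, 0.745 and 0.788 in group 1 and 0.906, 0.869 and 0.885 in group 2. All group 1 values were below those of group 2, by 0.120 on average, with 135 to 242 reads per library. Without the length correction the difference was 0.0734. In PARD3 the 39-nt exon 12 of 25 was included at 0.405, 0.312 and 0.473 in the libraries of group 1 and at 0.55, 0.606 and 0.488 in those of group 2, with 26 to 60 reads. The nearest values, 0.473 and 0.488, were close, and the means differed by 0.151.

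ESRP1 had the A5SS record and 1 of the SE records. The A5SS adds 12 nt to exon 12 of 16 and keeps the frame, and this site is known to set whether the protein is kept in the nucleus. Its longer form was used at 0.647, 0.715 and 0.587 in the libraries of group 1 and at 0.748, 0.741 and 0.843 in those of group 2, with 66 to 99 reads. The means were 0.650 and 0.777. The 151-nt exon 14 of 16, whose loss shifts the frame, had levels of 0.481, 0.522 and 0.265 against 0.73, 0.613 and 0.73, with 16 to 53 reads. Both records were lower in group 1.

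The DSC2 record concerns the exon that separates the forms of desmocollin 2 with a long and a short cytoplasmic tail. The 46-nt exon is absent from the MANE transcript, and where it is included it adds 33 coding nt and then a stop, which gives the short form. Its level was 0.156, 0.689 and 0.425 in group 1 and 0.11, 0.085 and 0.076 in group 2. Group 1 was higher but spread widely. Each library had 5 to 18 reads, and pooled levels were 0.485 (95% Wilson interval 0.303 to 0.670, from 25 reads) in group 1 and 0.0908 (0.039 to 0.198, from 42 reads) in group 2. The intervals cover counting error only. In CTNND1 the record was of exon 2 of 21, 119 nt of 5′ untranslated sequence. Its level was 0.207, 0.069 and 0.045 against 0.281, 0.258 and 0.148, with 3 to 12 reads, and the groups overlapped.

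Among the 100 other junction genes, 8 had 12 records, ARVCF, CAMSAP3, DLG1, LMO7, LSR, PKP4 and SCRIB among them. Of the 100, 59 had at least 10 counts in every library. Over all 16743 such genes, 7.11% had a record. In 10 of the 12 the groups did not overlap, where 57.5% of all records, themselves selected for a difference, did not. LMO7, an actin-binding protein of the adherens junction, had a 30-nt exon at a mean level of 0.183 in group 1 and 0.326 in group 2, with at least 556 reads. LSR, of tricellular junctions, had a 147-nt exon at 0.373 against 0.553. Of 11 genes with exons known to depend on ESRP proteins, 4 had a record, CTNND1, FGFR2 and SCRIB among them. Records were matched by gene, and whether the listed exon is the one that depends on ESRP proteins was not checked. The level was lower in group 1 in 3 of the 4 records and higher in the other, where 72.6% of all SE records were lower. FGFR2 had as few as 2 reads in a library.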

How the data were processed

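Raw counts for each gene symbol and RPKM values were deposited by the authors for 3 shCtrl and 3 shRBM39 libraries of stranded mRNA, grouped here by their titles. The columns called NC were taken as shCtrl, since no other control was sampled. The submitters' processing notes name Trimmomatic 0.36, STAR 2.5.3a, featureCounts, Subread 1.5.1, edgeR 3.12.1 and GRCh38. The annotation release and the strand setting of the counting are not given in the sources used here. The RPKM values scale these counts by gene length and library total, without TMM factors.

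The genes and lists were chosen with earlier results of these data known. All 35 genes are named. Full statistics go to those with an adjusted p under 0.05 and an absolute log2 fold change of at least 0.5, and to CDH1, EPCAM, CTNND1, ESRP1 and ESRP2. From each list of other genes, at most the 3 largest called changes are named. Counts were fitted over the whole table with edgeR 4.0.16 (R 4.3.3): filterByExpr, TMM, a quasi-likelihood test between the groups, without covariates, and Benjamini-Hochberg adjustment across 18243 genes. Standard errors are those of the log2 fold change. Exon numbers and coding parts of the splicing records come from GENCODE v44 on GRCh38. Merged exons and overlaps between genes come from the exon coordinates deposited with the counts, whose annotation release is not given. The fits were tested on simulated counts. Alternatives used DESeq2 1.42.0 and limma 3.58.1 among others.

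The authors also deposited splicing records made with rMATS, with inclusion and skipping read counts and inclusion levels as a fraction from 0 to 1. Their columns of p-values, FDR and group differences, and their summary of events, were not used. Levels were recomputed from the reads to within 0.0005, and differences were taken as group 1 minus group 2. Starts count from 0 in the table and from 1 here. Some genes of the context lists are not reported here.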

Additional observations from a re-analysis of the deposited data

How the results depend on the processing

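With 3 libraries per group, which the study's methods call replicate experiments, p-values measure the spread between these samples and not between hairpins or lines. The number of hairpin sequences behind each group is not stated. In all 15 alternative fits, 23 of the 26 called genes kept their call and direction. The exceptions were GRHL1, MARVELD3 and CTNNA1. The count of junction genes called ran from 25 to 31 (main 26), and leaving out each library gave 25 to 28. Against a log2 fold change of 0.5, 5 were called (4 lower, 1 higher), and 6 of the 63 other junction genes instead of 43, against 12.2% of all tested genes. Library totals alone, and limma on log2(RPKM + 1) and on log2(RPKM + 0.1), called 2 higher in place of 4. The median log2 fold change was -0.33, -0.27 and -0.29 in these settings and -0.15 with the GC content and length offset, against -0.20. When each library was left out it ran from -0.23 to -0.20.

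Direction turned only for genes that were not called. EPCAM was at -0.016 under upper-quartile scaling, -0.11 under library totals (adjusted p = 0.0224, edgeR), -0.11 under limma on log2(RPKM + 1) and on log2(RPKM + 0.1), -0.00081 without shCtrl replicate 2 and -0.037 without shRBM39 replicate 3, and its highest value with a library left out was 0.064. CRB3 was at -0.087, -0.076 and -0.085 under library totals and the limma fits in that order, and CTNND1 was at 0.0073 with the offset.

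The replicate block, which takes the replicate number as a term, also called 26 junction genes, 22 lower and 4 higher, and changed no call. Same-numbered libraries did not deviate together (correlations 0.00612, -0.0282 and 0.00011), so the numbers were not taken as pairs. A minimum of 20 reads in every library left 3 of the 6 splicing records, and 3 of the 5 without overlap. Low read numbers limit the DSC2 and CTNND1 records.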
